A study of Mus musculus with 37 samples.

Results

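Cells that held many transcripts of Mef2c were compared with cells that held 1, among mouse embryonic fibroblasts of the ICR background collected 7 days after infection with a retroviral pool of 48 factors. The high class comprised the cells with at least 5 counts of Mef2c, 233 of 8565 cells, and the low class comprised the cells with exactly 1 count, 1315 cells. A count is 1 unique molecular identifier, that is 1 captured RNA molecule after removal of amplification copies. The classes were defined by the Mef2c count, so Mef2c itself is left out of all results and every statement below concerns other genes of the same cells. A count of Mef2c cannot tell a transcript of the vector from a transcript of the cell's own gene.

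Mef2c encodes a transcription factor of the MADS family that binds an AT-rich element in the promoters and enhancers of muscle genes. In skeletal muscle it acts together with the basic helix-loop-helix factors Myod1 and Myog, which bind E-boxes, and in the embryonic heart it acts with Gata4, Tbx5 and Hand2. Class II histone deacetylases bind MEF2 proteins and repress their targets, and kinases such as the salt-inducible kinases regulate that repression. MEF2 factors are also known from neurons, neural crest and myeloid cells.

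All libraries carried the same pool, which per the labels held 43 protein-coding or other genes, among them Mef2a, Mef2b, Mef2c, Mef2d, Myod1, Gata4, Gata6, Tbx5, Hand2, Myocd and Cdkn1a, and 5 microRNAs. The 37 samples are technical replicates of 1 biological replicate, with no culture that lacked the pool, so p-values measure the technical spread between libraries of 1 culture. Each cell took up its own unknown mixture of vectors, so the classes differ in more than Mef2c. Replicates 4 and 6 shared 59 cell barcodes, against at most 4 in any other pair, and were pooled, which left 36 libraries. These held 70 to 548 cells and 637680 to 7921171 counts each, and the median cell had 8553 counts from 3568 genes. The library names fall into 3 series, JD, PZ47-PZ48 and PZ58. The libraries also fall into 2 sets by the level of Rps27a, at 728 to 1302 counts per 1000000 (CPM) in 10 libraries and at 2.96 to 15.6 CPM in the other 26, so values are also given within these sets where they bear on a result.

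Cells of the high class were deeper: their median total was 17545 counts, that of low cells was 11044, and high cells ranged from 3461 to 208623. Each high cell was therefore paired with a low cell of the same library of nearly equal total. This gave 203 pairs in 29 libraries, with 3 to 22 pairs per library and a median of 7. The JD series contributed 90 pairs, PZ47-PZ48 78 and PZ58 35. The median total was 16357 counts in the matched high cells and 16150 in the matched low cells, and the high cell was the deeper one in 110 of the 203 pairs. The 30 high cells that stayed without a partner had a median of 50447.5 counts, so the deepest cells of the class are under-represented in the tests.

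The cells of the high class were not of one kind. Myod1, which converts fibroblasts to muscle when delivered alone, had at least 1 count in 100 of the 233 high cells (42.9%) and in 48 of the 1315 low cells (3.65%). At least 3 of 12 genes that define differentiated skeletal muscle (Myog, Myh3, Myh8, Mylpf, Myl1, Tnnc2, Tnni1, Tnnt3, Mymk, Cdh15, Chrna1 and Chrng) were detected in 128 high cells (54.9%) and 56 low cells (4.26%). Of the high cells, 38 held these muscle genes without a count of Myod1, and 10 held Myod1 without them. At least 3 of 16 macrophage genes were found in 12 high cells and 22 low cells, and at least 3 glial genes in 13 high cells and 48 low cells. The remaining 88 high cells (37.8%) carried neither Myod1 nor the muscle or macrophage marks, against 1203 low cells (91.5%). The mark of 3 muscle genes is a range and not a cell type: 18 high cells held exactly 2 of the 12 genes and 12 held exactly 3.

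The share of cells with muscle marks did not grow evenly with the Mef2c count. It was 2.40% of 6334 cells without Mef2c, 4.26% at 1 count, 8.96% of 424 cells at 2 counts, 13.3% of 173 cells at 3 and 14.0% of 86 cells at 4. Just inside the high class, at 5 to 9 counts, it was 30.4% of 125 cells, and at 10 or more counts it was 83.3% of 108 cells. The share with Myod1 was 8.14% at 4 counts, 22.4% at 5 to 9 and 66.7% at 10 or more. Median depth also rose from 7584.5 counts at 0 to 25319 at 5 to 9 and was 14747.5 at 10 or more. After every cell had been thinned to 5000 counts, which left out the shallower cells, 1596 of those without Mef2c and between 4 and 30 in each class from 2 counts on, the share with muscle marks was 1.49% at 1 count, 6.25% at 4, 14.9% at 5 to 9 and 77.7% at 10 or more. The thinned share with Myod1 was 1.84%, 3.75%, 5.79% and 54.4% in the same classes. Most of the cells with muscle marks in the high class thus lie at 10 counts of Mef2c or more, in either reading.

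**Figure D1:**
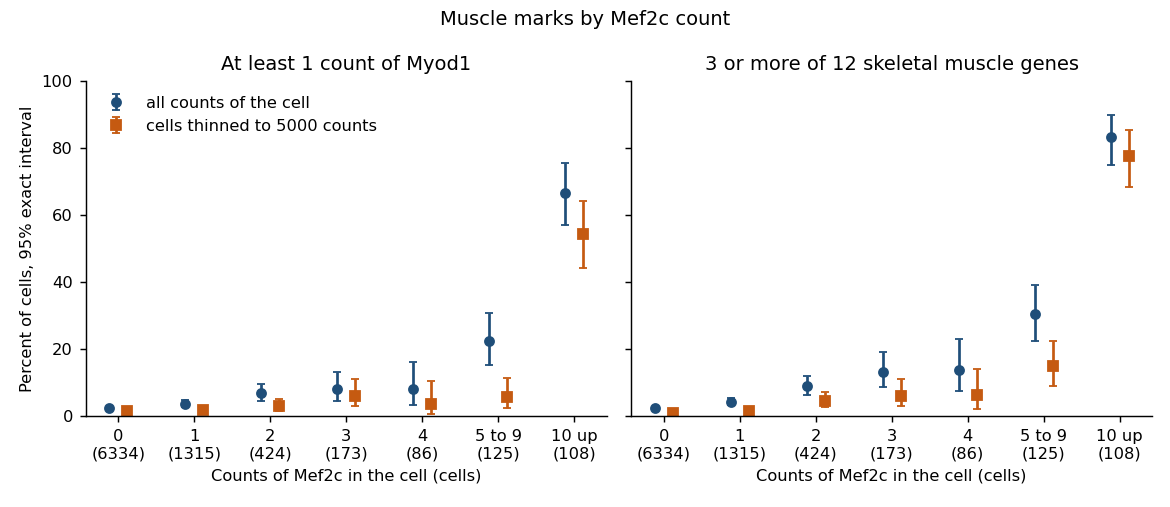
Percent of cells with at least 1 count of Myod1 (left) and with 3 or more of 12 skeletal muscle genes (right) by the count of Mef2c in the cell, with exact 95% binomial intervals that cover counting error only; circles use all counts and squares use cells thinned to 5000 counts. The shares at 10 counts or more, 66.7% and 83.3%, lie above those of all other classes, and no test was made because depth and the threshold enter the classes.

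Among cells with a count of Myod1, muscle marks were found in 22.9% of 48 cells at 1 count of Mef2c, in 44.8% of 29 at 2, in 71.4% of 14 at 3, in 57.1% of 7 at 4, in 75% of 28 at 5 to 9 and in 95.8% of 72 at 10 or more. Among cells without Myod1 the shares were 3.55% at 1 count, 17.5% of 97 cells at 5 to 9 and 58.3% of 36 cells at 10 or more. The summed level of the 22 genes of the skeletal sarcomere list followed the same order. It was 17.2 counts per 10000 in low cells with Myod1 and 2.24 in low cells without it. In the high class it was 343 with Myod1, 72.3 without it, and 1.81 in the 88 cells without any of these marks, where the absence of muscle genes follows from how the cells were chosen. At 10 counts or more it was 432 with Myod1 and 188 without. Cells with 10 counts of Mef2c or more made up 72 of the 100 high cells with Myod1 and 36 of the 133 without it, so a higher Mef2c count and a detected Myod1 came together and their parts cannot be told apart here.

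**Figure D2:**
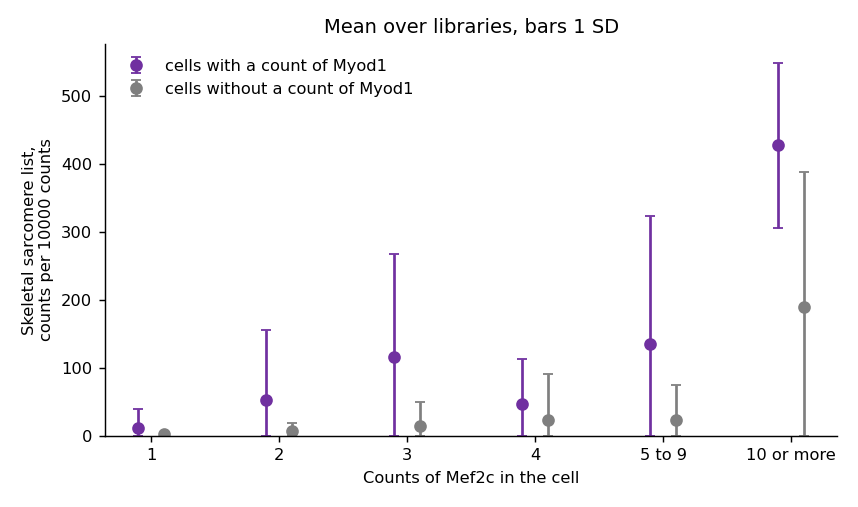
Mean level of the skeletal sarcomere list, in counts per 10000 counts of a cell, averaged over libraries, by the count of Mef2c and split by a count of Myod1; bars are 1 SD over libraries and are clipped at 0. Cells with 10 counts of Mef2c or more and a count of Myod1 stand at 427 ± 122 (SD, n = 30 libraries), and those without Myod1 at 189 ± 199 (SD, n = 21).

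Free RNA in the droplets can give counts of muscle genes in cells that do not express them. In all 76 cells that held at least 3 macrophage genes (median 30162 counts), Ttn was found in 21.1%, Actc1 in 25.0%, Mylpf in 26.3% and Myod1 and Myog in 10.5% each. These cells are deeper than the matched ones, and 12 of them also carried Myod1 or muscle marks. The other 64 (median 24296 counts) stood at 9.38% for Ttn, 17.2% each for Actc1 and Mylpf, and 0 for Myod1 and Myog. Myod1 is absent there because of how the 64 were chosen, and that choice can also lower Mylpf and Myog. The matched low cells (median 16150 counts) stood at 7.88% for Ttn, 11.3% for Actc1, 19.7% for Mylpf, 3.94% for Myod1 and 2.46% for Myog. All lie below the shares of the 76 cells, but those of Mylpf, Myod1 and Myog lie above the shares of the 64. The matched high cells (median 16357 counts) stood at 58.1%, 53.2%, 60.1%, 42.4% and 46.3%, above both. The part of free RNA in these shares was not tested.

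In the matched cells, counts were summed per library and class, and 13214 genes with at least 20 counts were tested. Of these, 1164 were higher (8.81%) and 689 lower (5.21%) in the high class at an adjusted p under 0.05, 14% in all (edgeR quasi-likelihood test with the library as a block, Benjamini-Hochberg adjustment). The median log2 fold change of all tested genes was -0.0058. A gene nearly absent from the low class could pass the minimum of 20 counts through the high class alone, and such a gene could only be higher. Within the series the counts were 580 higher and 99 lower in JD, 495 and 189 in PZ47-PZ48, and 296 and 117 in PZ58. List members given below with an adjusted p that missed the threshold, and Klf2, Eda2r, Plk2 and mt-Nd1, were chosen after their values had been seen. Libraries rich in Rps27a gave 479 and 178, and the others 800 and 349, both with fewer libraries.

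Genes of the skeletal sarcomere were the most changed. Of 22 listed, 21 were tested, 20 rose and none fell, with a median log2 fold change of 6.13. Their summed level was 82.6 CPM in the lowest high-class library, 13321 CPM in the median one and 58306 CPM in the highest. In the low class it was 21.1, 134 and 909 CPM. The high class was above the low class of the same library in 28 of 29 libraries, and 27 high-class values lay above every low-class value. The exception was a PZ47-PZ48 library in which the level was lower in the high class.

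Myh3 (ENSMUSG00000020908, chr11:67078300-67102291, GRCm38), the embryonic myosin heavy chain, had 3323 counts in the high and 3 in the low class. Its level in the high class was 0, 776 and 4937 CPM in the lowest, median and highest library, and in the low class it was 0, 0 and 5.64 CPM. The ratio of counts was 1061, with an exact 95% interval of 363 to 5146 that covers counting error only, and the adjusted p was 9.3e-35. Mylpf, the regulatory light chain of fast fibres, had 2507 CPM in the median high-class library and 10.8 in the median low-class one, a log2 fold change of 7.87 ± 0.24 (SE). Tnni1, the slow troponin I, rose by 7.55 ± 0.27 and Tnnt3, the fast troponin T, by 6.99 ± 0.20. Genes of embryonic, fast and slow fibres therefore rose together in the class. Tnnc2 rose by 7.93 ± 0.28 and Mybph by 8.30 ± 0.21, but Tnnc2 overlaps Ube2c and Mybph overlaps Adora1, and counts of such pairs are uncertain because strand use is not stated in the sources used here. Myom2, an M-line protein, was the tested member that did not pass, at 0.73 (adjusted p = 0.098).

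Sarcomere genes that heart and skeletal muscle share behaved alike. Of 18 tested, 17 rose and none fell, with a median log2 fold change of 4.93, or 5.10 with the 4 genes absent from the low class set to their bound. Ttn, the giant spring protein titin, had 0, 1217 and 3285 CPM in the lowest, median and highest high-class library and 0, 0 and 23.0 CPM in the low class. Its log2 fold change was 7.98 ± 0.24 (adjusted p = 2.3e-31). Actc1, the cardiac alpha-actin that embryonic skeletal muscle also uses, rose by 8.06 ± 0.26, and Myl4, the embryonic atrial light chain, rose by 6.94 ± 0.21 and was higher in 29 of 29 libraries. Actn2, the Z-disc alpha-actinin, had 1520 counts against 1, a ratio of 1456 with an interval of 261 to 57530. The muscle intermediate filament gene Des, which was already at 126 CPM in the median low-class library, rose to 1113 CPM. Tpm1, a tropomyosin that fibroblasts use as well, stood at 0.01 (adjusted p = 0.98).

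**Figure D3:**
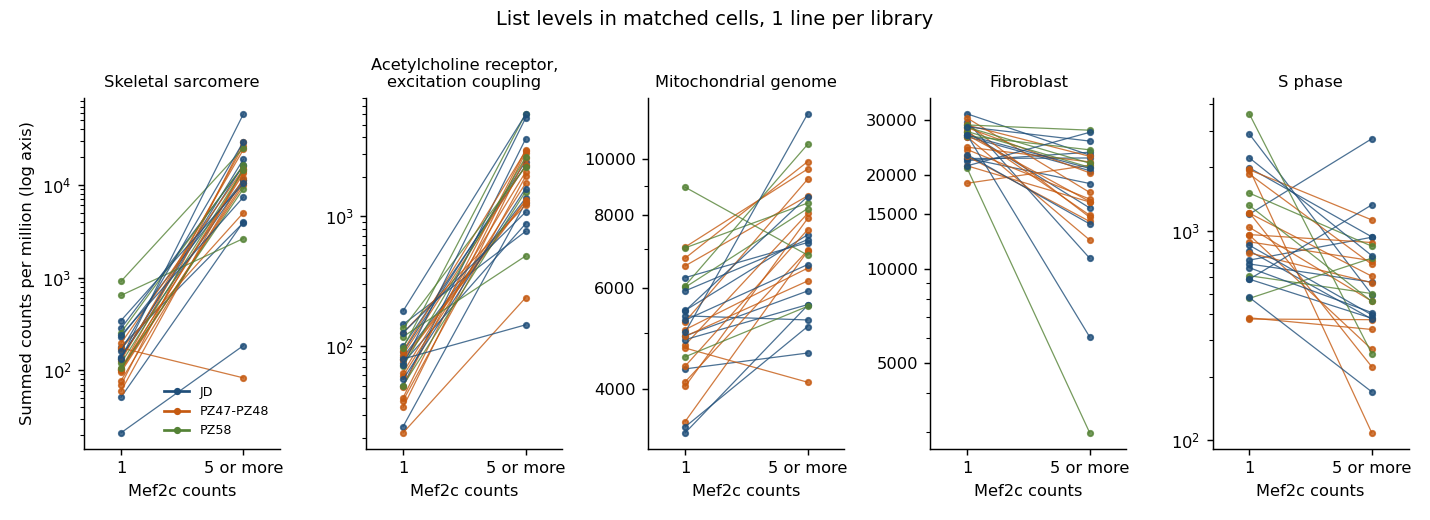
Summed level of 5 gene lists, in CPM on a log axis, in the matched cells with 1 count and with 5 or more counts of Mef2c; each line is 1 of 29 libraries, coloured by series. The skeletal sarcomere list is higher in the high class in 28 of 29 libraries, the acetylcholine receptor and coupling list in 29 and the mitochondrial list in 26, while the fibroblast and S phase lists are lower in 25 each.

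The regulators of muscle differentiation and cell fusion rose in part. Of 13 listed, 8 were tested and 6 rose. Myog (chr1:134289989-134292548), the factor that starts terminal differentiation, was at 0, 511 and 1844 CPM in the lowest, median and highest high-class library and at 0, 0 and 7.69 CPM in the low class. It was detected in 46.3% of the high and 2.46% of the low cells, with a log2 fold change of 7.86 ± 0.21 (adjusted p = 4.9e-33) and higher values in 28 of 29 libraries. Mymk and Mymx, the membrane proteins that fuse myoblasts, rose too. Mymk had a log2 fold change of 7.78 ± 0.25, and Mymx had 584 counts against 1, a ratio of 559 with an interval of 99.98 to 22126. The myoblast cadherin Cdh15 rose by 4.19 ± 0.34. The upstream factor Six4 (0.25, adjusted p = 0.76) and the receptor Cdon (0.56, adjusted p = 0.22) did not pass the test.

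All 21 tested genes of the acetylcholine receptor and of excitation coupling rose, of 22 listed, with a median log2 fold change of 4.47 (4.73 with absent genes at their bound). The summed level was 146, 2009 and 6052 CPM in the lowest, median and highest high-class library, and 21.8, 78 and 187 CPM in the low class. Only 1 high-class library lay within the low-class range. Chrna1, the alpha subunit of the receptor, rose by 6.56 ± 0.23. Chrng, the gamma subunit of the fetal receptor, had 487 counts against 2, a ratio of 233 with an interval of 64.2 to 1931. Cacng1, a subunit of the voltage sensor, had 397 counts against 1, and Srl, a protein of the sarcoplasmic reticulum, rose by 5.34 ± 0.24.

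Of 15 tested genes of muscle metabolism, 13 rose and none fell, with a median of 4.09. Mb, the oxygen store myoglobin, was at 211 CPM in the median high-class library against 0 in the low class and rose by 6.52 ± 0.25. The muscle ADP-ribosyltransferase gene Art1 rose by 6.34 ± 0.30, the glycolytic mutase Pgam2 by 5.02 ± 0.29 and the respiratory chain subunit Cox6a2 by 5.02 ± 0.30. Ppargc1a, the coactivator of mitochondrial genes, stood at 1.27 (adjusted p = 0.12), and Cox7a1 at 0.54 (adjusted p = 0.65). Cd36, the fatty acid transporter, had 298 counts in the high class and none in the low class, at least 95.1-fold higher over the group.

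Genes of the cardiac list were divided, and not all of its members are restricted to the heart. Of 18 listed, 13 were tested and 7 rose. Myh7, which slow skeletal fibres use as well, rose by 7.20 ± 0.30 and was at 179 CPM in the median high-class library. Gja5, a gap junction protein of the atria, rose by 5.53 ± 0.29. Nppa, the atrial natriuretic peptide gene, had an adjusted p of 0.0018 with a log2 fold change of 2.62. Ankrd1, a stress-responsive protein of the sarcomere, rose by 2.70 ± 0.24 from 109 to 803 CPM in the median library. It also had a count in 63.5% of the matched low cells without Myod1, muscle or macrophage marks. Myh6, the alpha myosin heavy chain, had 305 counts against 1, a ratio of 292 with an interval of 52.0 to 11574, and 34.1% of its high-class counts came from 1 cell. The atrial and ventricular markers Nppb (-0.17, adjusted p = 0.93), Myl7 (2.38, adjusted p = 0.069), Myl3 (1.58, adjusted p = 0.14) and Tnni3 (0.74, adjusted p = 0.58) did not pass. Gja5 overlaps other genes, and so does Myh7.

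Of 14 tested genes known as targets of MEF2 factors outside these lists, 7 rose and 1 fell, with a median of 1.15. Smyd1, a muscle methyltransferase, rose by 6.71 ± 0.22, and Lmod3, which nucleates actin filaments, by 7.00 ± 0.22. Myoz2, a Z-disc protein, had 302 counts against 3, a ratio of 96.4 with an interval of 32.7 to 470. Srpk3, a muscle kinase, had 143 against 3, a ratio of 45.6 with an interval of 15.3 to 224. The endothelial and stress-responsive factor Klf2 was the member that fell, at -0.86 (adjusted p = 0.0063). The other 6 members did not pass, among them Nr4a1 (-0.14, adjusted p = 0.89) and Jun (-0.21, adjusted p = 0.40).

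The promoters of 4 genes that rose are shown because their 250 bases before the start hold the MEF2 consensus element, searched by that name on both strands. They were chosen after their values had been seen, from 6 such genes among 46 named genes that rose and have a promoter in RefSeq. The sequences are RefSeq's for GRCm38.p6, read 5′ to 3′ on the gene's strand, with the element in capitals. Ttn lies at chr2:76982548-76982797 (minus strand), Myoz2 at chr3:123034988-123035237 (minus), Pgam2 at chr11:5803797-5804046 (minus) and Srpk3 at chrX:73774155-73774404 (plus).
Ttn: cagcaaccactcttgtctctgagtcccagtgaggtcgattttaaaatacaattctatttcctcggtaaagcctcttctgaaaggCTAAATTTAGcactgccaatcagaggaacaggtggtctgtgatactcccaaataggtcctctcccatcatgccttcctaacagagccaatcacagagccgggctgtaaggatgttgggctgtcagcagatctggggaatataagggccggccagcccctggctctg
Myoz2: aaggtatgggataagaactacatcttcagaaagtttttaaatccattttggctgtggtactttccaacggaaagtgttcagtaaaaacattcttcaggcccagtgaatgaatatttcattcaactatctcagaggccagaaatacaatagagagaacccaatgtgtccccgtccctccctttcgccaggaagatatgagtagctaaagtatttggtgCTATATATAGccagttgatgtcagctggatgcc
Pgam2: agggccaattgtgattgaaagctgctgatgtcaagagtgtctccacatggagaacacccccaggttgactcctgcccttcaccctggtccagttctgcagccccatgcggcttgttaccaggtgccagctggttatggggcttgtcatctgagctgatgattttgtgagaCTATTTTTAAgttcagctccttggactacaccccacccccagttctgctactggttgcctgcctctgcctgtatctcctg
Srpk3: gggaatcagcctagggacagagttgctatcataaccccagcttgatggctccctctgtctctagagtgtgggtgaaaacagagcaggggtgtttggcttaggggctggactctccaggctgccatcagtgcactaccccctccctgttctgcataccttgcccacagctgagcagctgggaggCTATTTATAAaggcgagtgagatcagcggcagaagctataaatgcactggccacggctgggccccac
The element lay 166 bases before the start in Ttn, 33 in Myoz2, 80 in Pgam2 and 67 in Srpk3. Over all 32851 windows of this length, 2.92% held it. The share was 1.67% of the windows of tested genes, 3.97% of those of genes that rose and 1.42% of those of genes that fell. In the skeletal sarcomere list 4 of 18 windows held it, and in the list of other MEF2 targets 5 of 14. The latter list was made of known MEF2 targets, so its share follows in part from that choice. In the shared sarcomere and the metabolic lists 1 of 17 each held it, and in the acetylcholine receptor and coupling list 1 of 13. An E-box, CANNTG on either strand, was in 66.2% of all windows, 57.7% of those of tested genes, 64.4% of those of genes that rose and 56.4% of those of genes that fell. A match is a sequence in a window and not a site shown to be bound.

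Few regulators and partners of MEF2 changed. Of 25 tested, 2 rose (8.0%, near the 8.81% of all genes) and none fell, with a median of 0.03. Sik1, a salt-inducible kinase that phosphorylates class II deacetylases, was at 36.4 CPM in the median high-class library and 3.93 in the low-class one and rose by 2.68 ± 0.29 (adjusted p = 3.3e-10, higher in 26 of 29 libraries). Nfatc2, a calcium-responsive factor, had 29 counts against 1, a ratio of 27.8 with an interval of 4.60 to 1134.

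Of 40 tested factors of the pool other than Mef2c, 8 rose (20.0%) and none fell, with a median of 0.49. Over all genes tested, 8.81% rose and 5.21% fell. Myod1 (chr7:46376474-46379099) was at 0, 84.6 and 398 CPM in the lowest, median and highest high-class library and at 0, 0 and 35.0 CPM in the low class. It rose by 4.33 ± 0.32 (adjusted p = 8.6e-16) and was higher in 28 of 29 libraries. The other MEF2 genes rose as well, Mef2a by 1.23 ± 0.16, Mef2b by 1.31 ± 0.38 and Mef2d by 0.89 ± 0.19. Mef2a was detected in 91.6% of high and 80.8% of low cells. Gata6, an endoderm and heart factor, rose by 1.62 ± 0.32. Cdkn1a, an inhibitor of the cell cycle, rose by 0.89 ± 0.12, Smarcd3, a chromatin remodelling subunit, by 0.66 ± 0.13 and Hdac2 by 0.50 ± 0.14. The classic cardiac partners did not pass: Gata4 stood at 1.13 (adjusted p = 0.20), Tbx5 at 0.25 (adjusted p = 0.85), Hand2 at -0.77 (adjusted p = 0.36) and Myocd at 0.93 (adjusted p = 0.34). Over libraries, a matched high cell had counts of 13.4 other pool factors on average and a low cell of 12.0, a difference of 1.43 that was positive in 23 of 29 libraries (sign-flip permutation test, two-sided, p = 2e-05, adjusted over 3 measures 3e-05). As with Mef2c, a count of another pool factor cannot tell a vector from the cell's own gene. Cdkn1a had a count in 99.5% of high and 95.1% of low cells, and Hdac2 in 87.2% and 86.2%. The difference is therefore not a number of vectors. Genes per cell were 5119 ± 1016 (SD, n = 29) in the high and 5187 ± 918 in the low class, which did not pass (permutation p = 0.128). The difference of -68.3 genes was -101.7 after thinning each pair to the smaller total (permutation, adjusted p = 0.00366) and 63.2 without a limit in matching (adjusted p = 0.412).

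Fibroblast genes were lower in the high class. Of 25 tested, 16 fell and none rose, with a median of -0.67. The summed level was 2978, 20318 and 27846 CPM in the lowest, median and highest high-class library and 18822, 26845 and 31413 CPM in the low class, so the groups overlapped, with lower values in 25 of 29 libraries. The matrix genes Fbln2 (-1.31 ± 0.19) and Bgn (-0.74 ± 0.14) fell, as did the mesenchymal factor Twist2 (-1.23 ± 0.22) and the fibrillar collagen gene Col5a1 (-0.72 ± 0.13). Col3a1 (-0.47, adjusted p = 0.10) and Mmp2 (-0.14, adjusted p = 0.75) did not pass. Within the series 7, 9 and 7 genes fell in JD, PZ47-PZ48 and PZ58. None of the 25 passed when the high class was limited to 5 to 9 counts, while 6 fell when it began at 3 counts and 23 when it began at 10. By the Mef2c count the fibroblast list held 274 counts per 10000 at 1, 220 at 5 to 9, 104 at 10 or more, and 275 in the high cells without marks.

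Outside the lists, the genes with the lowest fold changes included the chemokine gene Ccl2, at 0, 20.2 and 187 CPM in the lowest, median and highest high-class library and at 0, 127 and 822 CPM in the low class. It fell by 2.15 ± 0.24 on the log2 scale (adjusted p = 9.7e-10) and was lower in 26 of 29 libraries, although the ranges overlapped. The neighbouring chemokine gene Ccl7 fell by 1.55 ± 0.21. Zic1, a zinc finger factor, fell by 2.10 ± 0.31, Tnmd, a tendon protein, by 1.86 ± 0.34, and Slco4a1, an organic anion transporter, by 2.63 ± 0.50. The mast cell or basophil protease gene Mcpt8 fell by 2.27 ± 0.56, although only 12.8% of the low cells had a count of it.

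Many genes of the cell cycle were lower. Of 24 tested genes of G2 and M phase, 17 fell with a median of -0.996, among them the kinesin gene Cenpe (-1.26 ± 0.29), Birc5 (-1.16 ± 0.23) and Cdk1 (-1.10 ± 0.23). Ube2c rose by 2.27 ± 0.25, but it overlaps Tnnc2. The summed level of the G2 and M phase list, with Ube2c in it, was lower in 20 of 29 libraries. Its median was 1870 CPM in the high-class and 1699 CPM in the low-class libraries, and the ranges overlapped (201 to 6406 and 133 to 8452 CPM). Of 20 tested S phase genes, 10 fell, with a median of -0.85. Rrm2, a ribonucleotide reductase subunit, fell by 1.00 ± 0.23, and the helicase genes Mcm4 and Mcm6 fell by 0.94 ± 0.23 and 0.91 ± 0.23. Both counts were 0 in the JD series and 0 at 5 to 9 counts of Mef2c, and they were 22 and 18 with a high class from 10 counts. Without the library as a block 6 genes of G2 and M phase fell. Leaving out replicate 9 raised the S phase count to 16. The S phase list held 10.2 counts per 10000 at 1 count of Mef2c, 8.33 at 5 to 9 and 4.14 at 10 or more.

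Transcripts of the mitochondrial genome were more abundant. All 7 tested genes rose, of 13 listed, from mt-Nd1 at 0.37 to mt-Nd5 at 0.61 ± 0.12, and mt-Co1, a subunit of cytochrome oxidase, rose by 0.56 ± 0.10. They made up 0.879% of the counts of a high cell and 0.570% of a low cell on average over libraries, a difference of 0.309 percentage points that was positive in 25 of 29 libraries (two-sided sign-flip permutation p = 1e-05, the smallest the resamples can give, adjusted p = 3e-05). Muscle cells are rich in mitochondria, and a high mitochondrial share is also a common sign of damaged cells; the part of RNA quality in this result was not tested. None of the 7 passed at 5 to 9 counts, in the PZ58 series or in the libraries rich in Rps27a, and 2 passed in JD. The mitochondrial genome held 58.8 counts per 10000 at 1 count of Mef2c, 65.9 at 5 to 9, 105 at 10 or more and 58.97 in the high cells without marks.

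In most of the other lists few members were called, beside 8.81% of all genes higher and 5.21% lower. The p53 response had the largest share of lower genes among them, and its summed level was lower in 22 of 29 libraries. The shares were 11.8% in both directions for smooth muscle, 15.4% higher and 7.69% lower for the BMP and TGF-beta response, 12.5% and 25.0% for the p53 response, 5.88% in both for interferon genes and 6.25% in both for immediate early genes. Of 17 tested smooth muscle genes, Des and Synpo2 rose and Tagln and Cald1 fell, Des being a skeletal muscle gene too. Of 13 genes of the BMP and TGF-beta response, Id2 and Skil rose and Tgfb1i1 fell. Of 16 genes of the p53 response, Gadd45a (1.27 ± 0.19) and Eda2r rose, while Ccng1, Bax, Zmat3 and Plk2 fell. Of 17 interferon genes, H2-K1 fell by 0.49 ± 0.12 and Rsad2 was called higher, but 78.3% of its high-class counts came from 1 cell. Of 16 immediate early genes, Atf3 rose by 1.16 ± 0.35 and Myc fell by 0.63 ± 0.22, but the call of Atf3 was lost without replicate 36 (adjusted p = 0.0546) and that of Myc without any of 16 libraries (adjusted p up to 0.0942). The call of Tagln was lost without any of 16 libraries (adjusted p up to 0.0845). No gene of the mesothelial (13 tested), endothelial (6) or neuronal (4) lists was called.

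Some markers of other cells of the culture were higher in the high class. Of 14 tested macrophage genes, 12 rose, with a median of 2.64. The summed level of the list was 0 to 3787 CPM in the high-class libraries and 0 to 2184 CPM in the low-class ones, with medians of 35.8 and 27.6 CPM and higher values in 18 of 29 libraries. Tyrobp, an adaptor of myeloid receptors, had 151 counts against 3, from 8 and 2 cells of the 203 each. At least 3 macrophage genes were found in 11 high and 8 low matched cells. The 12 calls fell to 0 with DESeq2 and to 0 within PZ47-PZ48. With all matched cells DESeq2 gave no adjusted p for 2818 of the 13214 genes, which could not be called. Without these cells in either class 980 genes rose and 605 fell, and 21 skeletal sarcomere genes rose, 1 more than with them. Of 9 tested glial genes, 3 rose and 1 fell, but the summed level of the list was lower in the high class in 18 of 29 libraries (medians of 42.8 and 64.9 CPM, ranges of 0 to 642 and 17.2 to 1583 CPM). The call of Sox10, a glial factor, was lost without any of 5 libraries (adjusted p up to 0.0831). The neuregulin receptor gene Erbb3, which muscle also expresses, had 91 counts against 3. Fabp7 fell by 1.96 ± 0.60, a call that was lost without replicate 7 (-1.21, adjusted p = 0.168).

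**Figure D4:**
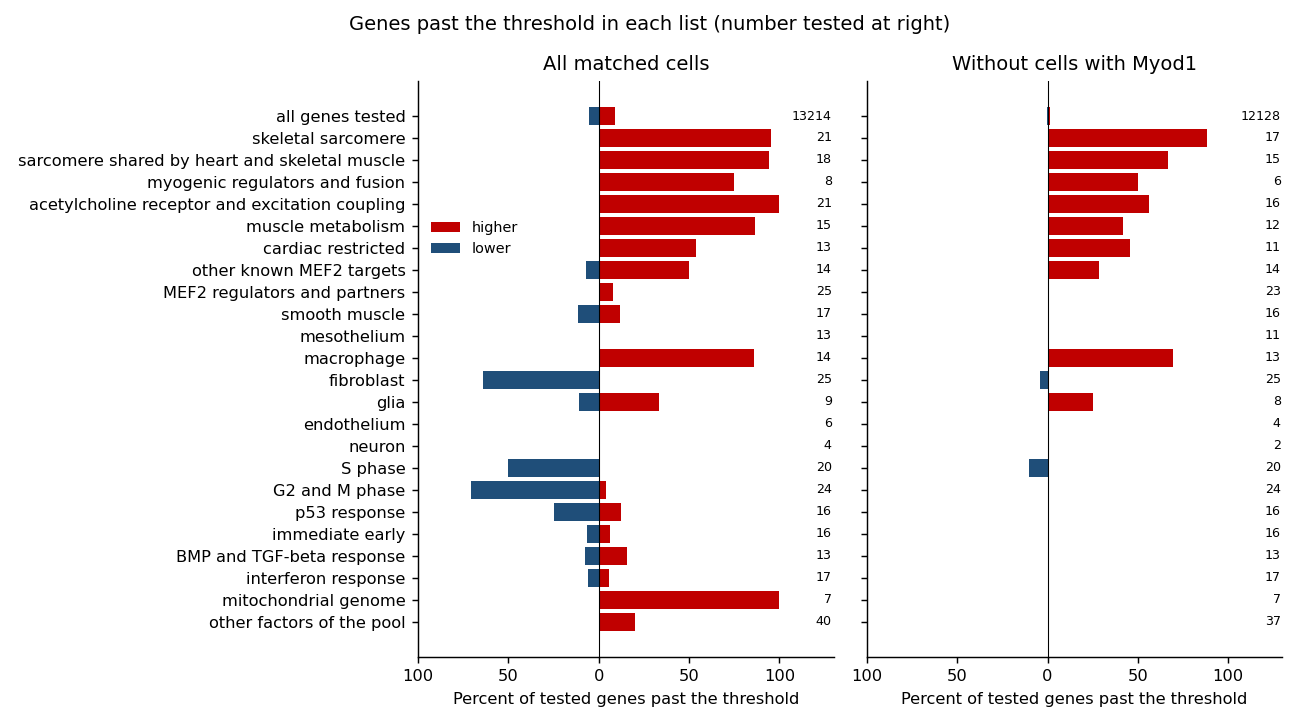
Percent of the tested genes of each list that were higher (right of 0) or lower (left of 0) at an adjusted p under 0.05, in all matched cells and in cells without a count of Myod1; the number tested is given at the right, and the top bar is for all genes tested. The skeletal and cardiac muscle lists and the macrophage list have longer bars to the right than all genes (8.81% and 1.13%) in both panels. In the left panel the G2 and M phase (70.8%), fibroblast (64%) and S phase (50%) lists have the longest bars to the left, against 5.21% of all genes. The p53 response follows at 25%.

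Removal of all cells with a count of Myod1 from both classes left 133 high and 1267 low cells, which gave 104 pairs in 20 libraries. Of 12128 genes tested, 137 were higher (1.13%) and 19 lower (0.157%), and 133 and 19 of them had been called the same way with all cells. Both comparisons draw on the same classes of cells, so the shared calls are not independent support. The smaller number of pairs also lowers the count of calls. Cells that carry Myod1 without a detected count remain in both classes. The skeletal sarcomere list was at 27.8, 1178 and 11998 CPM in the lowest, median and highest of 20 high-class libraries and at 40.1, 151 and 690 CPM in the low class, with higher values in 15 libraries. Of its 17 tested genes 15 rose, with a median of 3.82, against 6.13 with all cells. The difference between both medians was not tested, since the cells are partly the same.

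Myog was at 0, 26.9 and 504 CPM in the lowest, median and highest high-class library without Myod1 and had 259 counts against 3, a ratio of 82.3 with an interval of 27.8 to 402. It was found in 21.2% of the high and 2.88% of the low cells. Ttn rose by 6.11 ± 0.48, Actc1 by 5.52 ± 0.52, Mylpf by 4.88 ± 0.45 and Mymk by 4.46 ± 0.46. Myh3 had 416 counts against 1 in 15 high cells, with 34.9% of them from 1 cell. Of the shared sarcomere genes 10 of 15 rose, of the acetylcholine receptor and coupling genes 9 of 16, of the metabolic genes 5 of 12, of the cardiac genes 5 of 11 and of the other MEF2 targets 4 of 14. DESeq2 called 32 genes higher here, among them 4 of the skeletal sarcomere, 6 of the shared sarcomere and 1 of the receptor list, so the number of these calls depends on the tool. It gave no adjusted p for 4233 of the 12128 genes, which could not be called. Mef2a stood at 0.37 (adjusted p = 0.45) and Gata6 at 1.29 (adjusted p = 0.085), and no other pool factor of 37 passed.

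Of the fibroblast genes, Fbln2 alone fell without the Myod1 cells (-0.83 ± 0.22, adjusted p = 0.038), no gene of G2 and M phase passed, and none of the 7 mitochondrial genes did. The fibroblast list was at 24678 CPM in the median high-class library and at 27372 CPM in the low-class one, lower in 11 of 20 libraries. Ccl2 fell by 1.98 ± 0.29, and the BMP antagonist gene Grem1 by 1.80 ± 0.27. Mcpt8 had 2 counts against 108, and the S phase gene Rrm2 fell by 0.99 ± 0.25. Of 13 macrophage genes 9 rose, but the summed level of the list was higher in 10 of 20 libraries, with medians of 27.1 CPM in the high and 30.2 CPM in the low class and highest values of 13348 and 642 CPM. Tyrobp had 148 counts against 1, with 39.9% of them from 1 cell. Cd36 had 130 counts against 0, of which 76.9% came from 1 cell, and 92.9% of the 112 counts of Myh6 did.

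**Figure D5:**
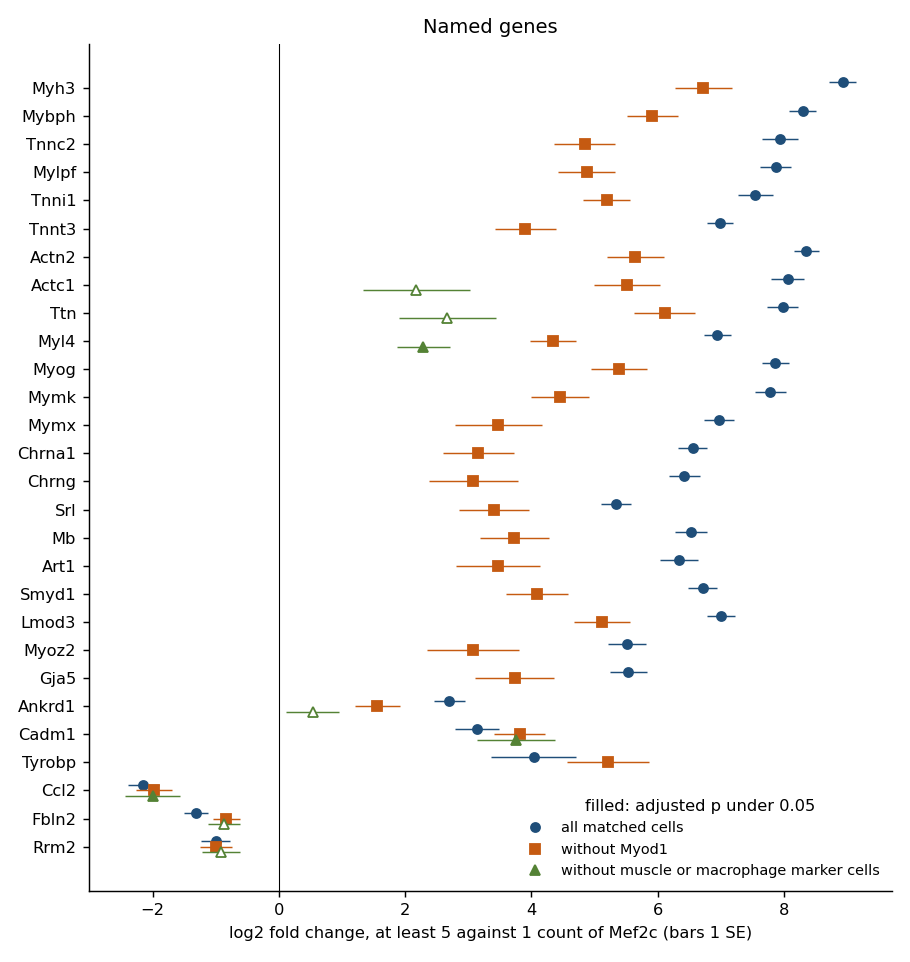
Log2 fold change of 28 genes between cells with at least 5 counts and with 1 count of Mef2c, with bars of 1 SE, in all matched cells (circles), without Myod1 cells (squares) and without Myod1, muscle or macrophage marker cells (triangles); filled symbols have an adjusted p under 0.05. Muscle genes are shifted to smaller values without Myod1, while Ccl2 lies near -2 and Cadm1 between 3 and 4 in all settings; genes used to remove cells, or with fewer than 20 counts, have no triangle.

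Removal of the cells with muscle or macrophage marks as well left 63 pairs in 16 libraries. Cells with at least 3 glial genes were not removed. Before matching, 80 of the 88 high and 1164 of the 1203 low cells lacked the glial mark too. The genes used to remove cells are left out, and the lower muscle values of these cells follow from the removal and are not a result. Of 11060 genes tested, 13 were higher (0.118%) and 5 lower (0.0452%), and 10 and 4 of them had been called the same way with all cells. Here too the cells are partly the same, so the shared calls are not independent support. DESeq2 called 0 higher and 1 lower, and 614 genes had an unadjusted p under 0.05 with edgeR and 403 with DESeq2. Cadm1, an adhesion protein, was at 0, 20.2 and 267 CPM in the lowest, median and highest high-class library and at 0, 0 and 15.2 CPM in the low class. It rose by 3.75 ± 0.61 (adjusted p = 0.0029), was higher in 11 of 16 libraries and had a count in 30.2% of high and 4.76% of low cells. With all cells it had risen by 3.13 ± 0.35.

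Among the other genes called in these cells, the neurotrophin receptor gene Ngfr had 100 counts against 2 in 11.1% of the high cells, a ratio of 48.7 with an interval of 13.1 to 407. Ngfr was the 1 gene called of 6 tested glial genes, and 47.0% of its high-class counts came from 1 library. Cadm4, an adhesion protein of Schwann cells, had 66 counts against 0, at least 21.4-fold higher over the group. Aldh1a1, Sprr2k, Fam19a5 and Cd200 were called higher too, with 44.0% of the counts of Cd200 from 1 cell. Nppa was the 1 gene called of 7 tested cardiac genes, with 181 counts against 3. Its counts came from 4.76% of the high and 3.17% of the low cells, with higher values in 3 of 16 libraries. Myl4 was called (2.29 ± 0.42), but 66.1% of its counts came from 1 cell. No fibroblast or mitochondrial gene passed, with list medians of 0.03 and 0.04. Ccl2 fell by 2.00 ± 0.44, Grem1 by 1.85 ± 0.36 and the chromatin protein gene Hmga2 by 1.17 ± 0.23, and Mcpt8 had 1 count against 77.

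Cells with 3 or 4 counts of Mef2c (259 cells) were compared with cells with 2 counts (424 cells), which neither class contains, in 195 pairs from 28 libraries. Of 12969 genes tested, 10 were higher (0.0771%) and 3 lower (0.0231%). Actc1 was at 0, 27.9 and 3512 CPM in the lowest, median and highest library with 3 or 4 counts and at 0, 4.24 and 468 CPM with 2. It rose by 2.99 ± 0.48 (adjusted p = 0.0016) and was higher in 17 of 28 libraries. Lmod3 rose by 2.64 ± 0.49, Myog by 2.47 ± 0.51, Ttn by 2.26 ± 0.43 and Mylpf by 1.98 ± 0.38. Of 19 skeletal sarcomere genes 3 rose, with a median of 1.79, and Myod1 stood at 0.55 (adjusted p = 1). The interferon gene Rsad2 had 3 counts against 113, and 1 of 17 tested interferon genes was called lower. The summed interferon list was lower in 17 of 28 libraries, with medians of 3144 and 3672 CPM. Its highest values were 6519 CPM with 3 or 4 counts and 12136 CPM with 2. DESeq2 called 0 genes in either direction, with 462 genes at an unadjusted p under 0.05 by edgeR and 295 by DESeq2, so these calls depend on the tool.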

How the data were processed

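Drop-seq libraries of reprogrammed mouse embryonic fibroblasts were deposited as raw counts of unique molecular identifiers per gene and cell barcode, 1 table per technical replicate, made by the authors with bcl2fastq 2.17.1.14, STAR 2.5.3a, UMI-tools and featureCounts 1.5.3 on mm10, per the submitters' processing notes. The annotation release, strand setting and cell filter are not given in the sources used here. Of 27999 rows, 27645 matched a symbol and 353 did not, and the EGFP row held 0 counts. Positions are from GENCODE M21 (GRCm38). The members and gene lists were chosen with earlier results of these data known.

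Of barcodes found in several libraries or 1 base apart within a library, the copy with most counts was kept, which removed 165 of 8730. No further filter on cells and no doublet caller was applied; 9 of 233 high and 6 of 1315 low cells carried marks of more than 1 kind of cell. Within each library, high and low cells were paired to the least summed difference of log2 totals, with pairs over 0.5 apart dropped and libraries of at least 3 pairs kept. Counts were summed per library and class, and edgeR 4.0.16 (R 4.3.3, limma 3.58.1) fitted genes with at least 20 counts by quasi-likelihood after TMM normalization, with library as a blocking term, since both sums come from the same library. Standard errors were derived from that fit, as the absolute log2 fold change divided by the square root of the F statistic. Values by library are counts per 1000000 of the class sum. DESeq2 1.42.0 was run as an alternative. The fit was also run on simulated counts with known changes. These had the same dispersion for all genes and no library effect, so the run does not cover counts that come mostly from 1 cell. Measures per cell were compared by sign-flip permutation over libraries with 100000 resamples, and intervals are exact (Clopper-Pearson) with scipy 1.17.1 and cover counting error only; a gene without counts was set to a floor of 3 counts over the group.

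Named genes are the 15 highest and 15 lowest fold changes past an adjusted p of 0.05 with the same sign in each series (8 each in the comparisons without Myod1 or marker cells), up to 4 members per list with the smallest adjusted p, and pool factors that passed together with 9 factors whatever their p. Genes with counts identical to another gene were not named; 29 of 112 named genes overlap another gene, and their values are uncertain. Pool microRNAs are not analysed here, and a few genes that entered the fits are left out of the lists and not reported here. Alternatives varied the scaling, tool, low-count filter, block, matching, class thresholds, cells and libraries. Those with 5 to 9 counts and by the Rps27a level were added after seeing the data.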

Additional observations from a re-analysis of the deposited data

How the results depend on the processing

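With all matched cells, 1164 genes were higher and 689 lower. Leaving out each library in turn gave 1057 to 1213 higher and 562 to 796 lower. All fits that left out 1 library kept the dispersion trend of all libraries, so the library left out still entered them in part. The count of higher genes fell to 580 in the JD series alone, 495 in PZ47-PZ48, 296 in PZ58, 479 in the libraries rich in Rps27a and 145 with a high class of 5 to 9 counts. The count of lower genes was 99, 189, 117, 178 and 14 in the same settings, 349 in the libraries poor in Rps27a, 286 with a high class from 3 counts and 1177 with one from 10 counts. Fewer pairs enter the restricted settings. Without the replicate block (the library as a term), 1294 genes were higher and 552 lower with all cells, 215 were higher without Myod1, 24 were higher without marker cells, and 58 were higher and 23 lower for 3 or 4 counts against 2. DESeq2 called 32 genes higher without Myod1, 0 higher and 1 lower without marker cells, and 0 and 0 for 3 or 4 counts against 2. In the comparison without Myod1, 4233 genes had no adjusted p in DESeq2. Without a limit in matching, 4 genes were higher and 0 lower without marker cells, and 0 were higher and 1 lower for 3 or 4 counts against 2. Removal of cells from 2 marker genes on gave 13 lower genes without marker cells. The difference in genes detected per cell was -68.3, turned to 63.2 without a limit in matching (adjusted p = 0.412) and was -101.7 after thinning each pair (adjusted p = 0.00366). The cause of these shifts was not tested. Log2 fold changes turned their sign for Cd200 (-0.43) with a high class from 10 counts, Sprr2k (-0.0056) with one from 3 counts, Synpo2 (-0.13) with one of 5 to 9, H2-K1 (0.14) in PZ58 and Rsad2 (-0.30) with a low class of 1 or 2 counts. Calls were lost on leaving out 1 library for Pcp4l1 (any of 3 libraries, adjusted p up to 0.127), Egfl6 (3, 0.0911), Fgf7 (8, 0.102), Rpa2 (17, 0.0944) and Fam19a5 (6, 0.0825), and for Cd200 without replicate 4+6 (0.0699). Of the values of named genes with all matched cells, 5172 kept their direction and side of the threshold under an alternative, 390 fell below it, 17 rose above it and 5 turned. The alternatives include the 29 fits that left out 1 library each, which share most of their data. With a median of 8553 counts per cell, factors present at a few molecules are missed in many cells, so the low class and the cells without Myod1 may hold undetected transcripts.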
